A study of Mus musculus with 4 samples.

Results

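The Notch receptors Notch1, Notch2 and Notch4, the ligands Jag1, Dll1 and Dll4, the proteases Adam10 and Adam17, the DNA-binding factor Rbpj and the co-activator Maml1 were followed across 4 arrays of mouse macrophages. These 10 genes were chosen by symbol, with earlier results of these data known. Each probe set that the platform annotation pairs with 1 of them alone was read, which gave 26 probe sets for 10 of the 18193 genes measured. The arrays hold RNA of macrophages grown from the bone marrow of C57BL/6 mice for 5 days in medium with L929 supernatant, a source of macrophage colony-stimulating factor. Cells were wild type (WT) or lacked both Hes1 and Hey1 (DKO), genes of 2 transcriptional repressors that Notch signalling is known to switch on. In each genotype 1 sample had no treatment and the other received 2 ng/ml lipopolysaccharide (LPS) for 3 h. LPS is the bacterial cell wall component sensed by the receptor TLR4. Each of the 4 groups is 1 array, so the differences below carry neither an error nor a p-value and have no replicate check. The labels name a double knockout, and how the genes were deleted, the number, sex and age of the mice and any pooling are not given in the sources used here.

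Notch signalling runs between touching cells. A ligand of the Jagged or Delta-like family on one cell pulls on a Notch receptor on another, ADAM10 or ADAM17 cuts the receptor outside the membrane, gamma-secretase cuts it inside the membrane, and the released part joins RBPJ and a Mastermind protein such as MAML1 at target genes, among them Hes and Hey genes. Without that part, RBPJ binds co-repressors. In macrophages RBPJ is known as a regulator of inflammatory gene expression, and ADAM17 also releases tumour necrosis factor from the cell surface.

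Each reading comes from a probe set, several short probes designed for 1 transcript, and its intensity is on a linear scale of arbitrary units. Values under 52.9 units, the median of all probe sets on all arrays, were treated as unmeasured and set to that floor. A difference with 1 side under the floor is thus a lower bound, written as at least N-fold. Where a gene has several probe sets, the brightest on average stands for the gene, and the others serve as a second reading of the same arrays. A gene counts as called, 2-fold higher or 2-fold lower, where the difference reaches 2-fold, and smaller differences are given as values. Across 4709 genes read by 2 or more probe sets above the floor on the 4 arrays, the 2 brightest gave LPS effects a median of 0.26 (log2) apart in WT cells and 0.20 apart in DKO cells; the gap was 0.20 for the genotype difference without LPS and 0.18 for that with LPS. These gaps describe agreement within arrays, not variation between cultures.

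Of the 26 probe sets, 15 lay above the floor on the 4 arrays, 6 on some and 5 on none. By the brightest probe set, 7 genes (Notch1, Notch2, Jag1, Rbpj, Adam10, Adam17 and Maml1) were above the floor on each array, and Notch4, Dll1 and Dll4 on some arrays only. The untreated WT array read brighter than the others among dim probe sets, by a median of 0.18 (log2) among 8260 probe sets between the floor and 500 units and 0.015 among 9369 of at least 500 units, which enters each comparison that uses that array. All 10 macrophage markers were above the floor on each array. Endothelial cells and stromal cells are known to carry Jag1, Dll4 or Notch4. Of 10 endothelial markers, Pecam1, Cdh5, Tek, Tie1, Cldn5 and Emcn were under the floor on each array, while Kdr, Vwf, Egfl7 and Esam were above it on at least 1 array and 3 of these on each. Of 9 fibroblast and stromal markers, 8 were under it on each array, Col1a1, Col1a2 and Pdgfra among them. All 5 B cell, 6 neutrophil and 6 dendritic cell markers measured and 4 of 6 T cell markers were under it on each array, whereas 3 of 5 progenitor and 2 of 4 erythroid and megakaryocyte markers were above it on each. The targeted gene Hes1 read 45.4, 26.7, 2.14 and 5.80 units and Hey1 57.2, 17.3, 9.17 and 10.2 units (WT untreated, WT with LPS, DKO untreated, DKO with LPS), so Hey1 passed the floor in untreated WT cells only and Hes1 nowhere, a weak check of the labels.

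**Figure D1:**
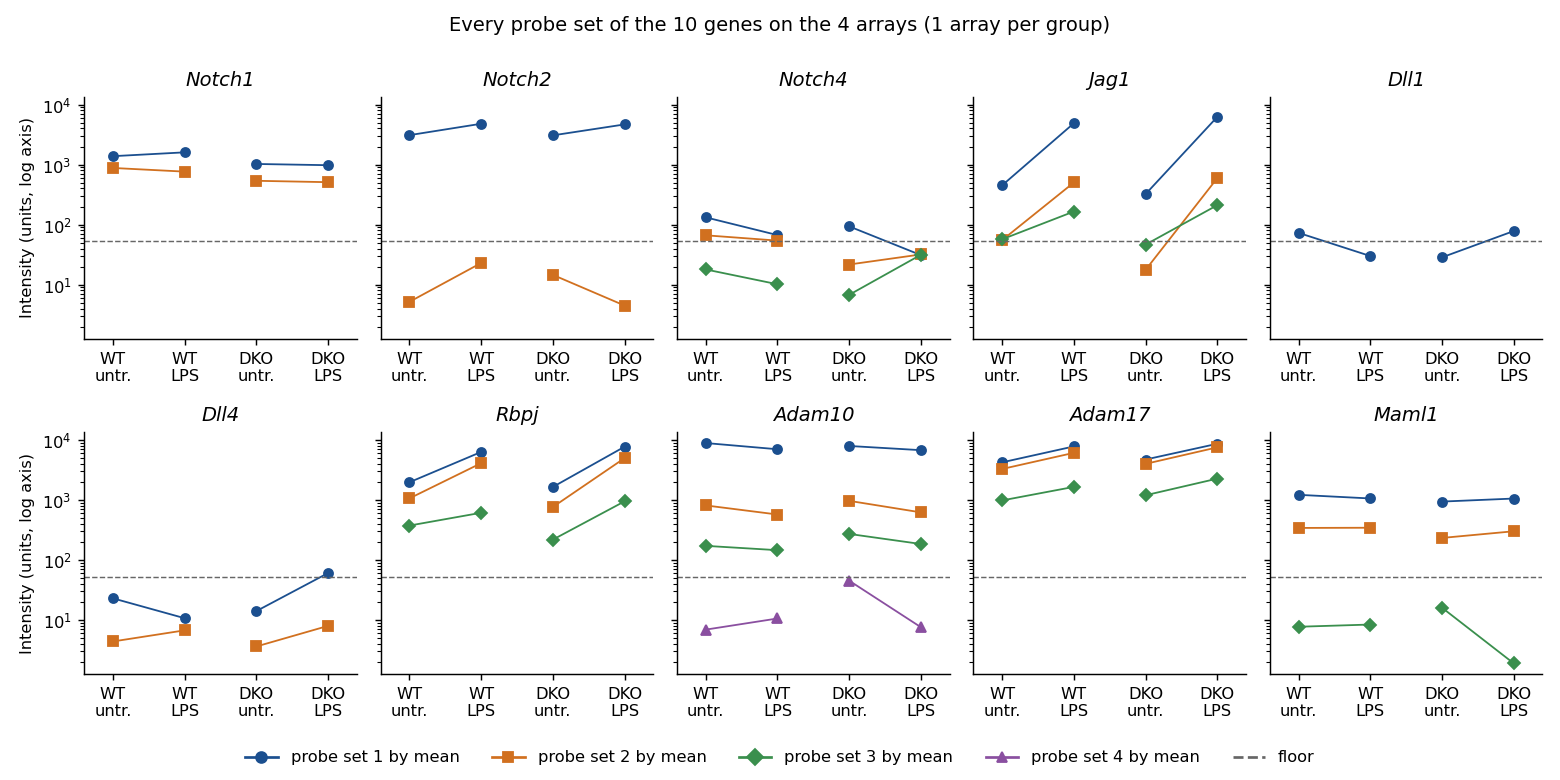
Intensity (log axis, arbitrary units) of every probe set of the 10 genes on the 4 arrays, with 1 panel per gene, 1 colour per probe set and the floor of 52.9 units dashed; a line joins the 2 arrays of a genotype. Each Jag1, Rbpj and Adam17 probe set is brighter with LPS in both genotypes, and Dll1, Dll4 and Notch4 lie near or under the floor.

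With LPS 2 of the 10 genes read more than 2-fold higher, the ligand gene Jag1 and Rbpj, in both genotypes. No member was 2-fold lower. In WT cells 2 of the 9 members with a value were higher, where 3.36% of all 11489 genes with a value were; in DKO cells it was 2 of 10, against 4.66% of 11240. Lower calls took 3.41% of all genes in WT and 4.77% in DKO cells. The median LPS effect of the members was 0.21 in WT and 0.38 in DKO cells (log2), against -0.086 and -0.10 over all genes. As the 10 genes were chosen with earlier results of these data known, these contrasts with all genes are description only.

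Jag1 encodes Jagged1, a membrane-bound Notch ligand. Its brightest probe set read 452 units in WT cells without LPS and 4889.8 with it, and 323 and 6245 in DKO cells. Both LPS arrays stood far above both untreated arrays, 10.8-fold in WT and 19.3-fold in DKO cells. In WT cells 0.296% of all genes had a larger LPS effect. The second probe set read 55.2, 504, 17.7 and 596 units in the same order, which is 9.12-fold in WT cells and at least 11.3-fold in DKO cells. The third read 57.0, 165, 46.45 and 211 units, 2.90-fold and at least 3.99-fold. All 3 probe sets thus passed 2-fold in both genotypes, while their folds in WT cells ran from 2.90 to 10.8. In RNA of a whole culture, more cells with a transcript and more transcript per cell cannot be told apart. The level of the 9 fibroblast and stromal markers, summed without the floor, was 228 and 286 units with LPS and 167 and 150 without it. Only Pdgfrb was above the floor on any array, so the sums include readings under it for the other 8. The part of these markers in the Jag1 reading was not tested.

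Rbpj encodes the DNA-binding protein through which Notch receptors act. Its brightest probe set read 1970.4 units in WT cells without LPS and 6304 with it, and 1645 and 7702 in DKO cells, 3.20-fold higher with LPS in WT and 4.68-fold in DKO cells. The second gave 1061, 4098, 763 and 4971 units, or 3.86-fold and 6.52-fold. The third gave 374, 612, 218 and 948 units, or 1.63-fold and 4.35-fold. Readings with LPS were above both untreated readings for each of the 3 probe sets, but the third did not reach 2-fold in WT cells.

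Jag1 and Rbpj were the 2 members that moved together past 2-fold, so the stretch before their transcription starts is shown as RefSeq gives it on GRCm38.p6. Each is 250 bases ending at the base before the start, 5′ to 3′ on the gene's strand: Jag1 at chr2:137116521-137116770, minus strand, and Rbpj at chr5:53590096-53590345, plus strand. Rbpj has a second listed start, whose stretch overlaps the one shown and is not printed. Capitals mark matches, on either strand, to CACGCG or CACGTG, letters bound by HES and HEY proteins, or to TGGGAA, the core bound by RBPJ; which motifs to put in capitals was chosen after the matches were seen.
Jag1: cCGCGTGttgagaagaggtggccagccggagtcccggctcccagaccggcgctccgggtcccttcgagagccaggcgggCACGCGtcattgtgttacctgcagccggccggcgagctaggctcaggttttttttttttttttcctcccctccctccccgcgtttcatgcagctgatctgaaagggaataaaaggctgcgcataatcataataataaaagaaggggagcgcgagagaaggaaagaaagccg
Rbpj: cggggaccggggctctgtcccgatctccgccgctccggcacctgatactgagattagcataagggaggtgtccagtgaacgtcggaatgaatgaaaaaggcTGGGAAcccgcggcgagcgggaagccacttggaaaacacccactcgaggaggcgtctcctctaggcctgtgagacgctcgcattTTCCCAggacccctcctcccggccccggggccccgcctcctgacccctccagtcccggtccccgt
The Jag1 stretch holds CACGCG on both strands, once each, at 171 to 166 bases and at 249 to 244 bases before the start. The Rbpj stretch holds the RBPJ core once on each strand, at 149 to 144 and at 65 to 60 bases before the start, and the stretch of its second start holds 1 of these matches. Among 32851 such stretches of mouse genes, 7.62% hold the former motif and 21.6% the RBPJ core. The 10 genes have 12 such stretches, as Dll1 and Rbpj have 2 listed starts each. RefSeq places the outer end of Rbpj at position 53555779 and that of Maml1 at 50293131, both ahead of the stretches read. No stretch at these ends was read, so the matches do not cover them. The former motif was also found before Notch2, Dll4 and 1 of the 2 starts of Dll1, so in 4 of 12 stretches, and the core in 2 of 12, both of Rbpj. The palindrome CACGTG, held by 6.02% of all stretches, was found before Adam10 only. The longer form GTGGGAA, which contains the core and is held by 5.42%, was found before none of the 10. CACNAG, held by 36.7%, was found before Notch1, Notch2 and Dll4. The NF-kB consensus, held by 5.0%, was found before Notch2 and Dll4 and not in the stretches of Jag1 and Rbpj. A match is a description of the letters, not evidence of binding.

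The other ligands were near the floor. The single probe set of Dll1 read 72.9 units in WT cells without LPS and 30.0 with it, and 28.5 and 78.2 in DKO cells. Only 2 of these exceed the floor, untreated in WT and LPS-treated in DKO cells, so the LPS effect was at least 1.38-fold lower in WT and at least 1.48-fold higher in DKO cells. Dll4, by its brighter probe set, gave 23.0, 10.7, 14.1 and 60.6 units and passed the floor in DKO cells with LPS only, just above it. Its second probe set was under the floor on each array. Bacterial control probe sets, which match no mouse transcript, reached 46.0 units, so these readings are close to background.

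None of the 3 receptor genes was called with LPS in either genotype. The measured probe set of Notch2 read 3091 units in WT cells without LPS and 4786 with it, and 3067 and 4665 in DKO cells. Its 2 LPS readings lie above its 2 untreated readings by 1.55-fold in WT and 1.52-fold in DKO cells, short of 2-fold, and the genotypes differed by log2 -0.01 and -0.04. Its second probe set was under the floor on each array.

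Notch1 read 1380.5 units in WT cells without LPS and 1599 with it, and 1024 and 977 in DKO cells. The LPS effect in WT cells was 0.21 by this probe set and -0.20 by the second, so no direction is given for it. Both DKO readings lie under both WT readings, with a log2 difference of -0.43 untreated and -0.71 with LPS. The second probe set gave 879, 763, 537 and 509 units, again with both DKO readings under both WT readings, by -0.71 and -0.58. None of the 4 differences reached 2-fold. A lower genotype difference than that of Notch1 was read for 9.46% of all genes untreated and for 2.82% with LPS. Of 9981 genes, 222 (2.22%) were as low as -0.43 or lower in both genotype comparisons, a count made after the Notch1 values were seen. With array medians set equal, the untreated difference of the brightest probe set shrank to -0.22 and that with LPS stayed at -0.71.

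Notch4, a receptor best known from endothelium, gave 132, 66.9, 93.4 and 31.0 units by its brightest probe set (order as before). It read 1.97-fold lower with LPS in WT cells (log2 -0.98) and at least 1.76-fold lower in DKO cells. Its second probe set gave 66.4, 54.1, 21.7 and 31.9 units, with a WT LPS effect of -0.29, and the third was under the floor on each array. Of the 10 endothelial markers 6 were under the floor on each array and 3 above it on each. The level of the 10, summed without the floor, was also lower with LPS, 1945 against 2389 units in WT and 1956 against 2690.4 in DKO cells. Its part in the Notch4 reading was not tested.

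The 2 proteases went opposite ways with LPS, each by less than 2-fold. Adam17 read 4239 units in WT cells without LPS and 7806 with it, and 4723 and 8643 in DKO cells, 1.84-fold and 1.83-fold higher. Its other 2 probe sets gave 1.86-fold and 1.68-fold in WT cells and 1.88-fold and 1.89-fold in DKO cells, so its 3 probe sets read between 1.68-fold and 1.89-fold in both genotypes. With array medians set equal the WT effect of the brightest probe set passed 2-fold, at log2 1.10.

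Adam10 gave 8881, 7000.1, 7939.7 and 6757 units by its brightest probe set, lower with LPS by log2 -0.34 in WT and -0.23 in DKO cells. Of all genes, 26.6% had a lower LPS effect in WT and 37.4% in DKO cells. With array medians set equal the WT effect of this probe set was -0.13. The next 2 probe sets were lower with LPS as well, by -0.50 and -0.24 in WT and by -0.64 and -0.56 in DKO cells. They disagreed on genotype: untreated DKO cells read -0.16 by the brightest, 0.25 by the second and 0.66 by the third, so no genotype direction is given for Adam10. The fourth was under the floor on each array.

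Maml1 gave 1219, 1060.4, 941 and 1057 units, with LPS effects of -0.20 in WT and 0.17 in DKO cells. This brightest probe set is of a type that can match related transcripts. The other measured one gave 342, 345, 233 and 301 units, with LPS effects of 0.01 and 0.37. Both probe sets were lowest in untreated DKO cells.

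**Figure D2:**
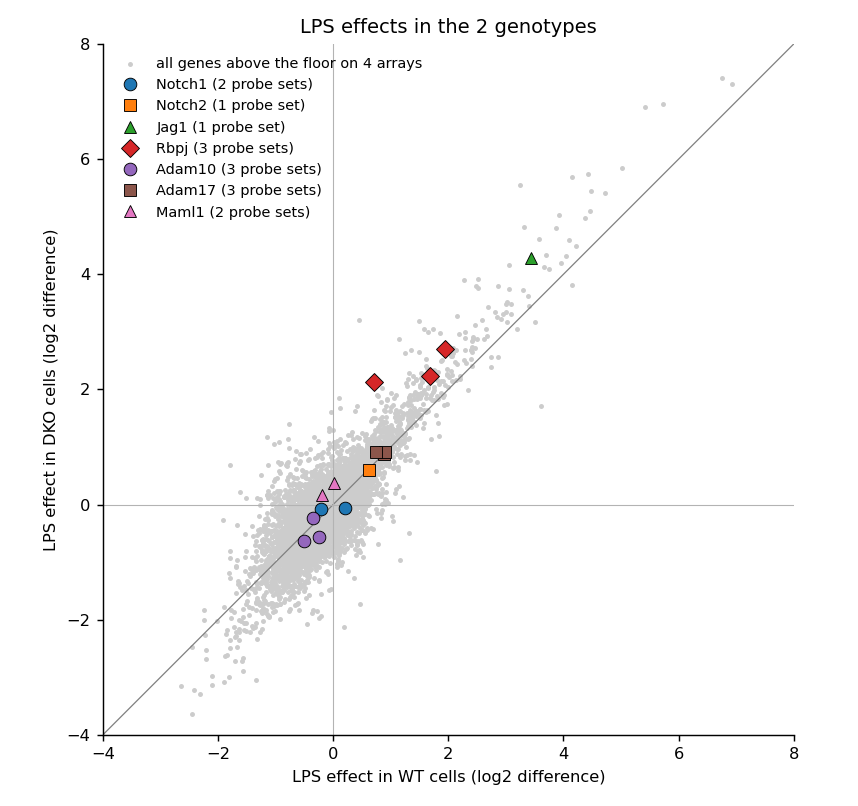
LPS effect (log2 difference between the LPS and untreated arrays) in WT cells on the x axis and in DKO cells on the y axis; coloured points are the 15 probe sets of these genes above the floor on the 4 arrays, grey points are the 9981 genes above it, and the diagonal marks equal effects. Jag1 at 3.44 and 4.27 and the 3 Rbpj probe sets lie above the diagonal, and Adam17 and Notch2 lie on or near it.

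The comparison of genotypes asks what the loss of Hes1 and Hey1 changes in these genes, and none of the 10 passed 2-fold in either state. Without LPS, 0 of 9 members with a value were called, where 0.466% of all genes were higher and 0.984% lower. With LPS it was 0 of 10, where 0.845% were higher and 0.934% lower. A count of 0 among 10 genes is near these background shares. The members' median was -0.37 without LPS and 0.071 with it, against -0.017 and -0.040 over all genes. The untreated value uses the WT array that reads bright among dim probe sets.

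For Jag1 and Rbpj the sign of the genotype difference turned with LPS. Jag1 was lower in untreated DKO cells (-0.48) and higher in DKO cells with LPS (0.35). Rbpj was lower by -0.26, -0.48 and -0.78 untreated and higher by 0.29, 0.28 and 0.63 with LPS over its 3 probe sets. The LPS effect was therefore larger in DKO cells by 0.84 for Jag1, and by at least 0.30 and at least 0.46 for its other probe sets. For Rbpj it was larger by 0.55, 0.76 and 1.41, the last past 2-fold. This difference was taken only for genes above the floor on each array, which 7 of the 10 members were. By the brightest probe set none of these 7 passed 2-fold in it. Dll1, Dll4 and Notch4 were left out, although the bounds of Dll1 put its difference at 1.02 or more, from readings near the floor. Of 9981 genes, 1.31% passed 2-fold with the larger effect in DKO and 0.721% with the larger effect in WT cells. That order depends on the scaling and reversed with equal array medians, to 82 and 171 of 9998 genes. With equal array medians the difference of LPS effects was 0.63 for Jag1 and 0.34 for the brightest Rbpj probe set. The untreated genotype differences were then -0.27 and -0.05.

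This direction was common among induced genes. Of 283 genes at least 2-fold higher with LPS in both genotypes and above the floor on the 4 arrays, 245 (86.6%) had the larger LPS effect in DKO cells, with a median difference of 0.31, and 117 (41.3%) were lower in DKO cells untreated and higher with LPS. Over all 9981 genes above the floor 17.7% had that pair of signs. The counts use the untreated WT array, and equal array medians moved the median difference of LPS effects over all genes from -0.047 to -0.26. They were not repeated with that scaling. Jag1 and Rbpj are among the 283, and nothing particular to them follows from these counts, which were made after their values were seen.

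**Figure D3:**
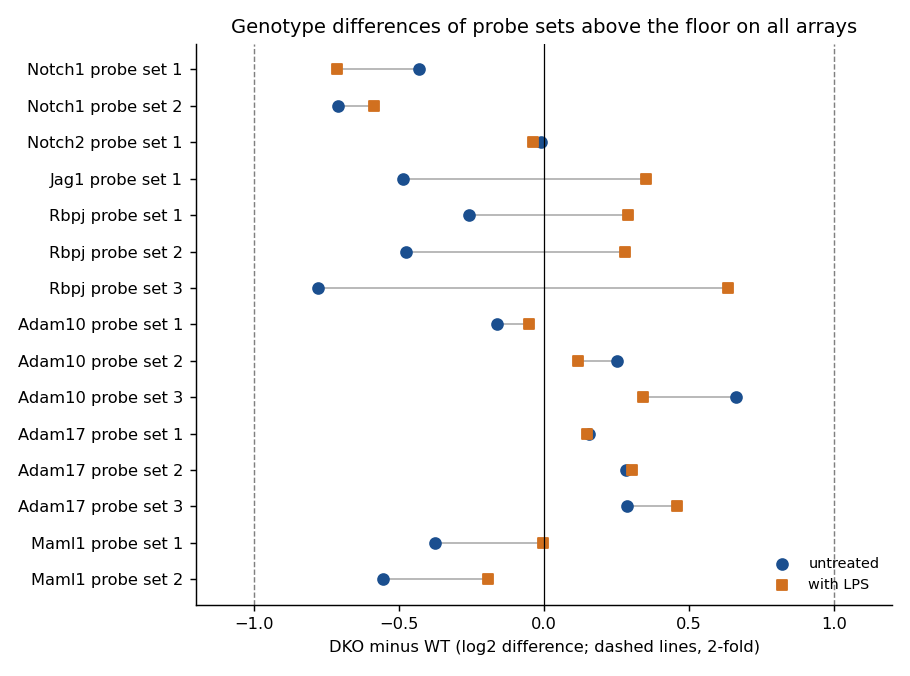
DKO minus WT (log2 difference) without LPS (circles) and with LPS (squares) for the 15 probe sets above the floor on the 4 arrays, numbered by mean intensity within a gene; dashed lines mark 2-fold. Notch1 lies left of 0 in both states, Jag1 and Rbpj cross 0, Adam17 lies right of 0, and the Adam10 probe sets fall on both sides.

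Of 84 further genes of the Notch pathway and of the ADAM proteases, 79 were measured. Among the 64 with a value in WT cells 2 were 2-fold higher with LPS and 0 lower, where 3.36% of all genes were higher and 3.41% lower. Among 63 in DKO cells 3 were higher and 0 lower, where 4.66% of all genes were higher and 4.77% lower. The medians were -0.018 and -0.050. None passed 2-fold between genotypes, of 64 without LPS, where 0.466% of all genes were higher and 0.984% lower, and of 63 with LPS, where it was 0.845% and 0.934%. These counts are near the shares over all genes and show nothing particular to the pathway.

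Rhbdf2, whose product iRhom2 carries ADAM17 to the cell surface, was higher with LPS in both genotypes. Its single probe set read 600.3 units in WT cells without LPS and 1589 with it, and 546 and 1474 in DKO cells, or 2.65-fold and 2.70-fold. It was the only one of 12 ADAM10 and ADAM17 regulators with a value in WT cells to pass 2-fold. The metalloprotease inhibitor gene Timp1 gave 159, 162, 225 and 134 units, lower with LPS in DKO cells by -0.75. Tspan5, Tspan15 and Tspan33 encode tetraspanins that pair with ADAM10. Tspan5 gave 408, 369, 275 and 198 units, with both DKO readings under both WT readings by -0.57 untreated and -0.90 with LPS, and by -0.71 and -0.25 in its second probe set. Tspan15 gave 94.6, 51.1, 70.9 and 82.7 units, an LPS effect of at most -0.84 in WT cells and a genotype difference of at least 0.64 with LPS. Tspan33 gave 65.4, 93.2, 96.4 and 92.9 units, 0.56 above WT in untreated DKO cells, where its next probe sets gave at most -0.33 and 0.19. Of 5 further membrane ADAM genes with a value none passed 2-fold; Adam19 came nearest, from 74.7 to 146 units in DKO cells (1.95-fold) by the 1 of its 2 probe sets above the floor, and Adam8 read between 8683 and 10119 units on the 4 arrays. Adam33 gave LPS effects of -0.26 and -0.48, and at most -0.068 and -0.54 by its second probe set.

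None of the 5 measured gamma-secretase genes with a value passed 2-fold. Aph1b, a subunit gene, gave 517, 703, 592 and 968 units, 1.36-fold and 1.63-fold higher with LPS, while its second probe set gave -0.12 and 0.11. Psen2, the gene of a catalytic subunit, read -0.29 and -0.46; its second probe set, close to the floor, gave at most -0.35 in WT and at least 0.13 in DKO cells. The subunit genes Aph1a and Ncstn had the largest untreated genotype differences of the list, at 0.28 and 0.21. The 5 glycosyltransferase genes, whose enzymes add sugars to Notch receptors, gave no call. For LPS in WT and DKO cells, Mfng read -0.85 and -0.53, Lfng -0.56 and -0.40, and Poglut1 -0.17 and -0.60. Lfng read -0.44 and -0.28 in DKO against WT cells without and with LPS, where its second probe set, close to the floor, gave -0.019 and at least 0.15. The second Jagged gene, Jag2, gave 140.0, 155, 184 and 128 units, an LPS effect of 0.15 in WT and -0.53 in DKO cells. Its second probe set gave 67.0, 9.01, 57.3 and 50.5 units, at most -0.34 and at most -0.12, so the probe sets differ in sign in WT cells. Notch3 passed the floor in DKO cells only, at 55.7 and 54.2 units.

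Among 13 ubiquitin and trafficking regulators with a value, Dtx2, a Deltex ubiquitin ligase gene, was 2.06-fold higher with LPS in DKO cells and 1.82-fold in WT cells, and its second probe set gave 0.84 and 0.86 (log2), short of 2-fold. Fbxw7, whose product marks the released Notch part for degradation, gave LPS effects of -0.80 in WT and -0.90 in DKO cells, and -0.32 and -0.54 by its second probe set. Neurl1b, a ubiquitin ligase gene of the Neuralized family, gave 537, 276, 373 and 312 units, an LPS effect of -0.96 in WT and -0.26 in DKO cells. The ubiquitin ligase gene Nedd4 gave 114, 132, 57.3 and 67.0 units, with both DKO readings under both WT readings by 1.98-fold and 1.97-fold, just short of a call; its second probe set gave a genotype difference (log2) of at most -0.41 untreated and at most -0.86 with LPS. The Deltex gene Dtx3l was 0.64 above WT in DKO cells with LPS, and 0.44 by its second probe set. Dtx1 gave 81.7, 44.8, 21.5 and 76.3 units, at most -0.63 in DKO against WT cells untreated and at least 0.53 with LPS. Numbl gave LPS effects of -0.29 and -0.66.

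None of 7 co-activator and none of 12 co-repressor genes with a value passed 2-fold with LPS. Of the acetyltransferase genes, Kat2a gave LPS effects of -0.48 and -0.68, Ep300 -0.45 and -0.48, and Kat2b was 0.23 above WT in untreated DKO cells. Ccnc, the gene of cyclin C, read -0.42 in DKO against WT cells untreated and 0.21 with LPS, its next probe set -0.13 and 0.93, and another, near the floor, -0.28 with LPS. Among the co-repressor genes L3mbtl3 came nearest to 2-fold, at 165, 83.6, 106 and 71.0 units, an LPS effect of -0.98 in WT cells; its second probe set gave -0.49. Rita1, whose product binds RBPJ, gave 180, 193, 191 and 113 units, lowest in DKO cells with LPS (LPS effect -0.76, genotype difference -0.77). Cir1 gave LPS effects of -0.47 and -0.53. Hdac2 read -0.32 in untreated DKO against WT cells and -0.58 by its second probe set, and Kdm5a read -0.34 with LPS, where its second gave 0.18. The list also held the aminotransferase gene Kyat1 (LPS effect of at most -0.63 in DKO cells), which is not known as a co-repressor.

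Of 12 known Notch target genes 5 had a value for LPS in each genotype and 1 was called, against 3.36% of all genes 2-fold higher in WT and 4.66% in DKO cells; with 5 genes, this count says little of the list. It was the cell cycle inhibitor gene Cdkn1a, at 2.15-fold in WT and 2.35-fold in DKO cells. Its second probe set gave 1.02 and 1.22 (log2). Myc gave 150.3, 296, 118 and 193 units, 1.97-fold higher with LPS in WT cells. Ccnd1, the gene of cyclin D1, gave 420, 382, 429 and 231 units, an LPS effect of -0.89 in DKO cells, and -0.74 and -0.38 by its other probe sets. Many other pathways act on these genes too.

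**Figure D4:**
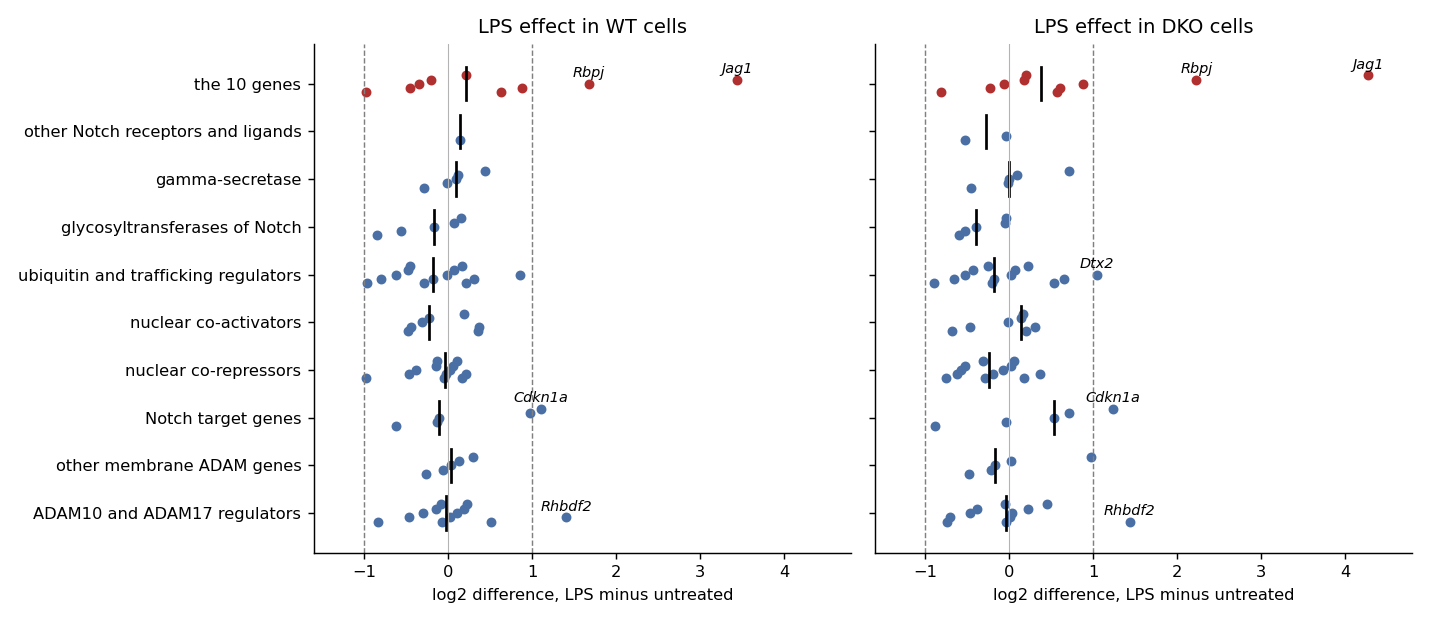
LPS effect (log2 difference) of each gene with a value in WT cells (left) and DKO cells (right), by list, bounds drawn at the bound; black bars are list medians, dashed lines mark 2-fold, and genes past it are named. Jag1 stands far to the right in both panels; Rbpj is next (1.68 and 2.23), with Rhbdf2 close to it in WT cells (1.40, and 1.43 in DKO cells), and Cdkn1a and, in DKO cells, Dtx2 also pass 2-fold.

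The genes most like Jag1 and Rbpj over the 4 arrays were also higher with LPS. Likeness was measured as the root mean square difference between the log2 intensities of 2 genes over the 4 arrays, after each was centred on its own mean. The genes most like Jag1 were Clec4e (0.094), Traf1 (0.11), Zc3h12c (0.13), Slc7a11 (0.21) and Ccl2 (0.21). Those most like Rbpj were Gadd45b (0.066), Tnfaip2 (0.069), Jak2 (0.070), Ampd3 (0.082) and Slc2a1 (0.083). Clec4e, a lectin receptor gene, was 12.6-fold higher with LPS in WT and 17.5-fold in DKO cells, and Gadd45b 3.27-fold and 4.52-fold. The 4 arrays are few, so such a likeness mainly records a similar size of the LPS effect.

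**Figure D5:**
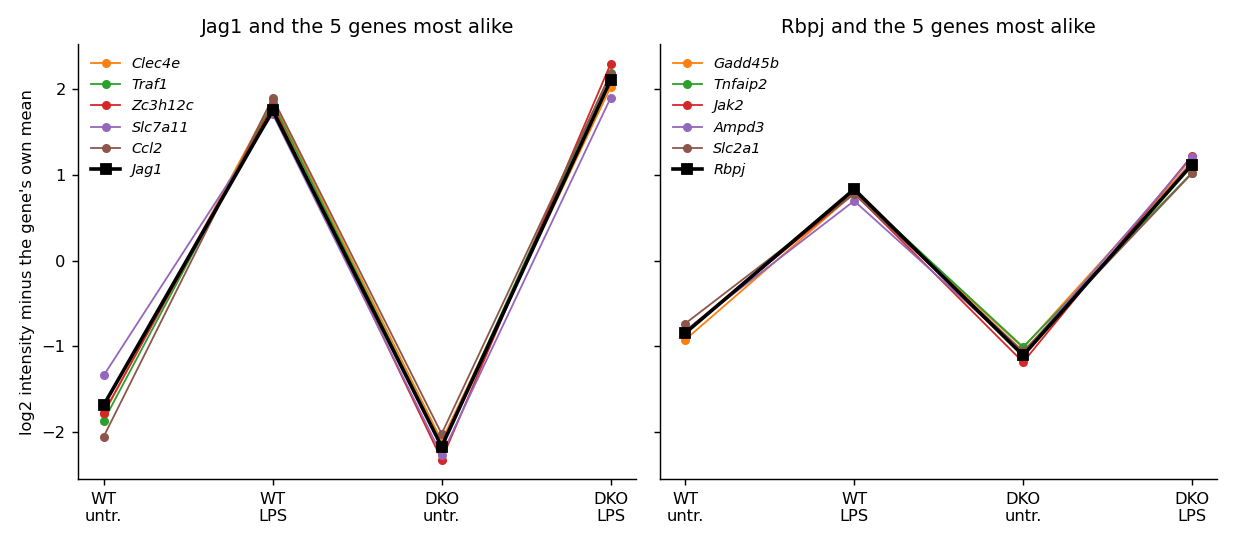
Log2 intensity minus the gene's own mean on the 4 arrays for Jag1 (left) and Rbpj (right), in black, and the 5 genes most like each, in colour; lines only connect the arrays of a gene. Each profile is highest in DKO cells with LPS, and each but that of Ccl2, which read 199.6 units in untreated WT and 204.1 in untreated DKO cells, is lowest in untreated DKO cells.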

How the data were processed

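RNA of 4 mouse macrophage samples, 1 per group, was amplified, labelled with biotin and read on Affymetrix arrays, per the labels' protocols. The deposited table gives 1 linear intensity for each of 45101 probe sets. With 2% of values trimmed from each end, every array averaged 500.0, which shows that the authors had scaled the deposited intensities; which tool made them is not stated in the labels. Scaling fixes bright signal and leaves dim signal free. Of the probe sets, 64 are controls, 34945 have 1 gene, 932 several and 9160 none listed; 34741 symbols were updated through Entrez identifiers with RefSeq (GRCm38.p6). Bacterial controls (27 probe sets) gave the background. The number of arrays limits the precision.

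Values were floored at 52.9 units, log2 differences were taken between arrays over all genes, and calls were made at 2-fold; no test is possible with 1 array per group. The call procedure was tested on simulated data with planted changes past 2-fold and little noise. That test checks the code, not the precision of these arrays. The difference of LPS effects used genes above the floor on the 4 arrays. The 10 genes, the lists and the markers were chosen with earlier results of these data known. Named were the 10 genes, list genes past 2-fold or with the 2 largest differences per list and comparison, and the 5 genes most like each called member; further probe sets are given for the 10 genes, for list genes past 2-fold and, for other list genes, where one has the opposite sign to the value given. Alternatives were 3 scalings, 2 other floors, an offset of 16 units, the median probe set, omission of shared probe sets and calling at 1.5-fold or at 3-fold. Python 3.11.15, numpy 2.4.6, pandas 2.3.3 and limma 3.58.1 were used.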

Additional observations from a re-analysis of the deposited data

Results flagged for a closer look

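For 3 of the 10 genes the LPS effect had opposite signs in the 2 genotypes, each by 1 array per group, and the differences were not tested. Notch1 read 0.21 in WT and -0.07 in DKO cells, a difference of -0.28, and its second probe set read -0.20 and -0.08, with no opposite sign; after cyclic loess the DKO effect was 0.03. Maml1 read -0.20 and 0.17, a difference of 0.37, and with equal array medians its WT effect was 0.014. The other measured Maml1 probe set read 0.01 and 0.37, with no opposite sign. Dll1 read at most -0.46 and at least 0.56, a difference of at least 1.02, from 4 readings of 78.2 units or less. Opposite signs were found for 23.5% of the 9981 genes above the floor on the 4 arrays.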

How the results depend on the processing

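No paired analysis was possible because each group is 1 array, and no replicate could be left out. Jag1 and Rbpj were read by their brightest probe set or by the median of their probe sets. Both were 2-fold higher with LPS in both genotypes under each scaling, floor and such choice tried, and also at 3-fold. In WT cells the log2 effects ran from 3.14 to 3.65 and from 1.64 to 1.95. In DKO cells they ran from 3.49 (a bound) to 4.36 and from 2.16 to 2.70. The ends 3.14, 1.95, 3.49 and 2.70 came from the median of the probe sets, the other ends from the brightest. Of 100 counts of called members under the alternatives 83 were within 1.5 times the value given. Most values given were 0, and calling at 3-fold cannot add calls, so this agreement says little. The 4 called values, all large, kept their sign. Among uncalled values the sign changed under some settings for Notch1, Notch2, Adam10, Adam17 and Maml1. The 17 other counts involve dim or small differences. The floor at the 35th percentile was 23.8 units and thus under the brightest control. With it 1 member was lower with LPS in WT cells (Dll1), as were 791 of 14352 genes. In DKO cells 4 were higher and 1 lower with LPS (Dll1, Dll4 and Notch4 added), against 800 and 771 of 14023 genes. In untreated DKO against WT cells 1 was lower, against 495 of 14178 genes. In DKO against WT cells with LPS 2 were higher and 1 lower, against 327 and 318 of 14118 genes. For the difference of LPS effects 1 was higher, against 376 of 11404 genes. With no floor and an offset of 16 units, 4 members were higher and 1 lower in DKO cells with LPS. Over all 18193 genes it was 1009 and 904. In DKO against WT cells with LPS 2 were higher, against 498 of all genes, and for the difference 2, against 1287. At 1.5-fold 4 members were higher and 1 lower with LPS in each genotype (Notch2, Adam17 and Notch4 added). Over all genes it was 796 and 1481 of 11489 in WT cells and 1005 and 1632 of 11240 in DKO cells. In DKO against WT cells with LPS 1 was lower (Notch1), as were 565 of 11236 genes. For the difference 1 was higher (Jag1), as were 521 of 9981 genes. Equal array medians moved the median of all genes by 0.21, both in the WT response to LPS and in the untreated genotype difference.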

Other observations

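Neighbouring genes were read for position, using only gene order in RefSeq. Of the 10 measured genes on each side of Dll4 on chromosome 2, 4 of 20 were past 2-fold in a genotype comparison, against 2.16% of all 9981 genes above the floor. These were Spint1, an inhibitor gene of membrane proteases (494, 297, 118 and 70.9 units in the order WT untreated, WT with LPS, DKO untreated, DKO with LPS; log2 -2.07 in both states), Chac1 (-1.65 untreated), Rhov (-1.10 with LPS) and Mga (-1.02 with LPS). Notch1 and Jag1 lie on the same chromosome, and 0 of 20 neighbours of either passed 2-fold. Beside Rbpj it was 2 of 20, 5730480H06Rik (-1.16 with LPS) and the Toll-like receptor gene Tlr1 (1.12 with LPS). Beside Adam10 and Adam17 it was 2 of 20 each, and beside Notch2, Notch4, Dll1 and Maml1 0 of 20 each. These values were looked at after the genes' own values were known.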
